A study of Mus musculus with 36 samples.

Results

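ABC transporters are membrane proteins that use ATP to move lipids, drugs, bile acids and metabolites out of the cytosol, and 43 of their genes were followed along the mouse intestine. The members were every gene on the arrays whose annotated symbol is Abc, a letter from a to g and a number, which gave 43 of the 15964 genes measured. Each gene was represented by its brightest probe set (the group of probes that reads a transcript) on array set A, else on B, else on C. This placed 25 genes on set A, 12 on set B and 6 on set C. The members came from 7 subfamilies, with 12 Abca, 8 Abcb, 10 Abcc, 3 Abcd, 1 Abce, 3 Abcf and 6 Abcg genes.

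The intestines came from male Hsd:ICR(CD-1) mice, 8 weeks old, that ate a standard chow at will, and the labels name no treatment. The duodenal piece adjoined the stomach, the jejunal piece was the central stretch of the small bowel, the ileal piece lay ahead of the caecal junction, and the colon was taken whole. Each segment was measured in 3 samples, and each sample was total RNA of whole segments pooled from 10 mice, so a value is an average over animals and over epithelium, muscle, immune and other cells. Every sample was run on 3 array sets, which gives 36 arrays. The groups differ by segment alone, so the segments were compared with each other.

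Each ABC protein is built around ATP-binding domains that drive the shape change of the membrane part. In the gut, ABCG5 and ABCG8 pair in the apical membrane and return plant sterols and cholesterol to the lumen, ABCB1 (P-glycoprotein), ABCC2 and ABCG2 expel drugs and conjugates into the lumen, and ABCC3 and ABCC4 send conjugates and bile acids towards the blood. Other members work inside the cell, in mitochondria, peroxisomes and lysosomes, and the Abce and Abcf proteins act in translation rather than in transport.

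The values are deposited intensities on a linear scale, in array units that can be compared between samples for a gene but not between genes. All arrays had been scaled to a common level: the mean without the top and bottom 2% was 200.05 to 200.19, and the array medians were 48.7 to 110.2. In 4 samples (jejunum 2 and 3, ileum 1 and 3) the 18S control signal was 39.8 to 1576, against 1980 to 25317 in the other 8. The ratio of 3' to 5' actin signal, a sign of RNA integrity, was 1.41 to 2.03 in the duodenum, 1.01 to 1.21 in the ileum and 1.20 to 1.61 in the jejunum and colon. Array duodenum 3 of set C is titled duodenum but its source name reads jejunum, and the title was followed. Most segment markers went with the labels. All 3 duodenal markers, Pdx1, Tff2 and Slc40a1, were higher in duodenum than jejunum, but Slc40a1 was also higher in colon than in small intestine. Of 5 colon markers, Car1, Car4 and Hoxb13 were higher in colon than ileum, while Slc26a3 and Hoxd13 were not shown to differ. Car4 was also higher in jejunum than duodenum. Of 6 enterocyte markers, Fabp2, Fabp6 and Slc10a2 were higher in ileum than jejunum, and Lct and Apoa4 were lower.

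Of the 43 ABC genes, 33 had a mean in at least 1 segment above the median of their array set. The other 10 were dim throughout (Abcb1b, Abcc1, Abcc12, Abca13, Abca9, Abcd2, Abca1, Abca4, Abcc8 and Abcc9). A gene was called when its adjusted p from limma, adjusted over all 36701 probe sets, was below 0.05. Differences among the segments were called for 7 of the 43 (16.3%): Abcg5, Abcg8, Abcb1a, Abcc2, Abcc3, Abcc6 and Abcb9. Over all 15964 genes the share was 13.7%, so the family as a whole was near the background. An 8th gene, Abcc4, was called only between colon and small intestine.

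**Figure D1:**
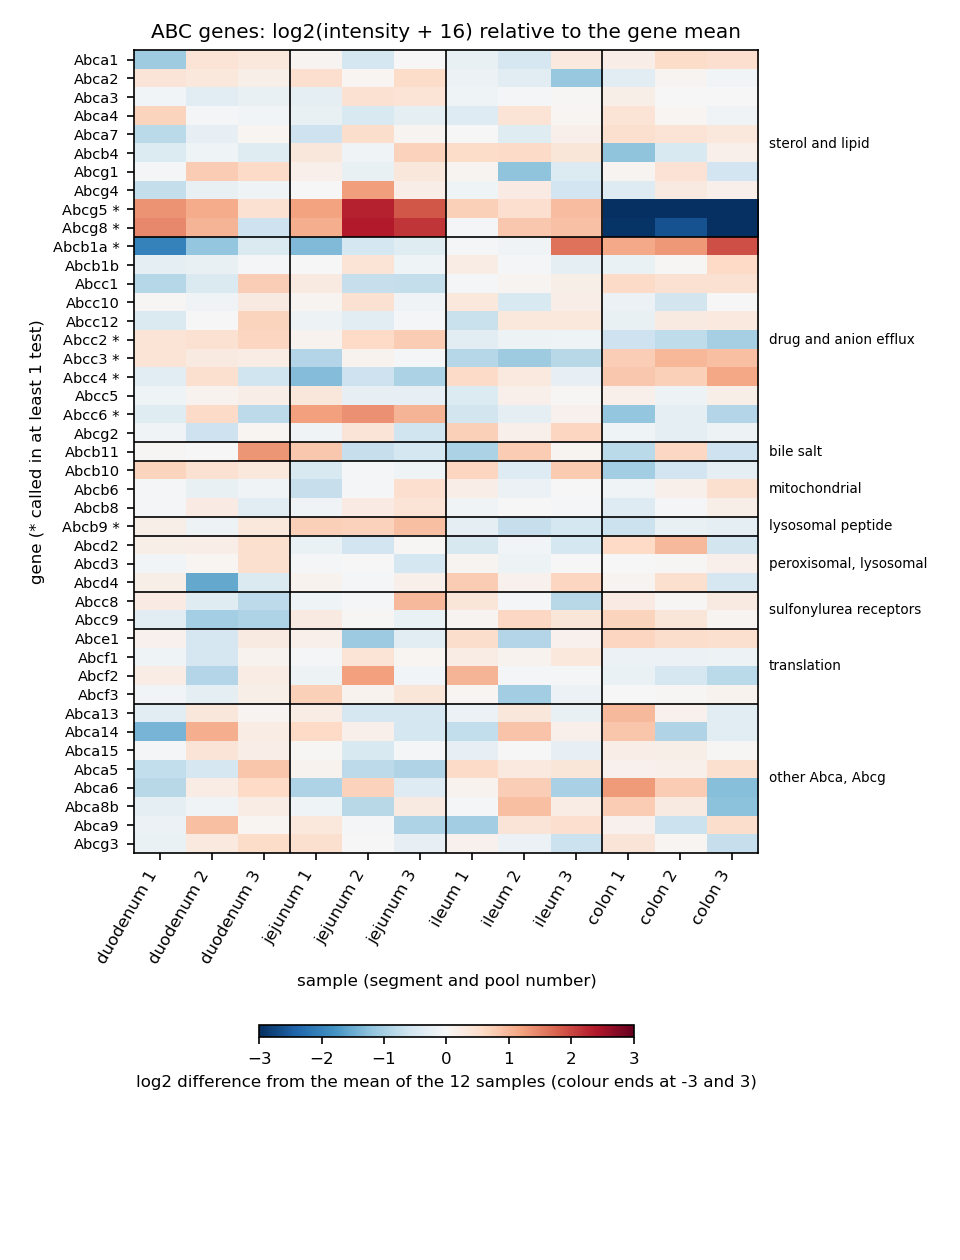
Heat map of the 43 ABC genes (rows, grouped by role) in the 12 samples (columns, 3 pools per segment), coloured by log2(intensity + 16) minus the gene's mean over the samples; a star marks the 8 genes called in at least 1 test. Abcg5 and Abcg8 are far below their means in all 3 colon pools, Abcb1a and Abcc3 are above theirs there, and most other rows show no pattern by segment.

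The widest regional difference in the family was that of the sterol pair Abcg5 and Abcg8, which were bright along the small intestine and close to the array median in the colon. The genes lie head to head, and they share a short stretch of DNA between their start sites. It is shown because both genes differed between the same segments and the stretch lies upstream of both. The sequence is that of the plus strand, in the direction of Abcg8, from the RefSeq promoter table of build GRCm38.p6, at chr17:84683012-84683120, and capitals mark matches to AGATAA, a form of the site bound by GATA factors.
Abcg5 to Abcg8: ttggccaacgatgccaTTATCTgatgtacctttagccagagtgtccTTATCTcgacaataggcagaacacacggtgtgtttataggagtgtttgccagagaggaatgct
The 109 bases hold AGATAA on the reverse strand at 2 positions, 17 and 47 counted from the first base. They hold 1 match to TATAAA and none to GGGCGG (a GC box) or to DR4 (direct repeats of AGGTCA with 4 free bases between them, the kind bound by liver X receptors).

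Promoters of 33 of the 43 members were in the table, 40 promoters in all, each with 250 bases before and 50 after the start and searched on both strands. AGATAA was in 4 of the 40 member promoters, those of Abca14, Abcf2, Abcg5 and Abcg8, against 11.2% of all 32851 promoters. The windows of Abcg5 and Abcg8 overlap, so they share matches, and each held 3. A second promoter listed for Abcg8 held none. Of all promoters 0.107% held 3 or more. GGGCGG was in 52.5% of member promoters and 35.7% of all, and TATAAA in 17.5% and 13.6%. DR4 was in none of the member promoters and in 0.0152% of all. These are counts of letters, and binding was not measured.

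Abcg5 encodes a subunit that transports only when joined to ABCG8. Its intensity was 3477.8, 2962.2 and 1863.2 in the duodenum pools, 3112.3, 6724.4 and 4965.4 in the jejunum, 2223.9, 1920.6 and 2590.4 in the ileum, and 72.0, 127.0 and 128.4 in the colon. Every small-intestinal pool was far above every colon pool, and within the small intestine the duodenum overlapped both its neighbours. The mean was 30.4 times higher in the small intestine (3316 ± 1593, SD, n = 9) than in the colon (109.1 ± 32.2, SD, n = 3), where it was close to the array set median of 103.4 and not shown to exceed background. On the log2(intensity + 16) scale the colon was lower by 4.65 than the average small-intestinal segment (log2 difference -4.65 ± 0.24, SE, adjusted p = 1.6e-09, limma).

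The step lay between ileum and colon, where Abcg5 differed by a log2 value of -4.20 ± 0.29 (SE, adjusted p = 1.5e-07, limma). The jejunum had the highest mean, 4934 ± 1806 (SD, n = 3), but the ileum to jejunum difference of -1.07 ± 0.29 (SE, log2) had an adjusted p of 0.066 in limma and was not called. Abcg5 passed that test when dim probe sets were left out, with the 18S class as a block, or without jejunum 1. The order from low to high was colon, ileum, duodenum, jejunum, and the small-intestinal neighbours in it were not separated by the test.

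Abcg8 encodes the other subunit of the pair. Its intensity was 1968.9, 1453.3 and 459.5 in the duodenum, 1544.6, 3796.1 and 3199.5 in the jejunum, 701.9, 1261.7 and 1324.1 in the ileum, and 78.3, 104.1 and 45.8 in the colon. All colon pools were below all small-intestinal pools, and the lowest small-intestinal pool was duodenum 3, the array with the conflicting source name. The small-intestinal mean of 1746 ± 1098 (SD, n = 9) was 22.9 times the colon mean of 76.1 ± 29.2 (SD, n = 3). That colon mean is below the array set median of 93.95 and was not shown to exceed background, so the factor is a ratio of listed values and not a measured fold.

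The Abcg8 log2 difference was -4.05 ± 0.42 (SE) for colon against small intestine, with an adjusted p of 2.1e-05 in limma. Against the ileum alone it was -3.59 ± 0.51 (SE, adjusted p = 0.00079). The order of the segment means was the same as for Abcg5, although the genes sit on different array sets. The duodenum and ileum means, 1294 ± 767 and 1096 ± 343 (SD, n = 3 each), overlapped widely.

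In the colon test 3 ABC genes were lower than in the small intestine (Abcg5, Abcg8 and Abcc2), where the background of lower calls was 4.96% of all genes. From ileum to colon 2 were lower, Abcg5 and Abcg8, where that background was 2.74%. The median difference of the 43 members was 0.06 for colon against small intestine (0.05 over all genes) and 0.12 for colon against ileum (0.03 over all genes), on the log2 scale.

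Genes around the sterol pair were read from a list of partners of sterol uptake and lipoprotein assembly. Of its 10 measured members, 5 were lower in colon than in small intestine (background 4.96%) and none was higher, among them Mttp, which loads lipid onto apolipoprotein B, and the apolipoproteins Apob, Apoa1 and Apoa4. Mttp was between 208.1 and 638.7 in the small-intestinal pools and between 1.1 and 1.8 in the colon (adjusted p = 6.8e-10, limma). These colon values lie below the offset of 16, so the fitted log2 difference of -4.64 is limited by the offset and understates the change in listed values. In a separate list of 13 measured nuclear receptors and factors, 2 were called in this test, Nr1h3 lower (background 4.96%) and Pparg higher (background 6.92%). Nr1h3 encodes liver X receptor alpha, the sterol sensor known to switch on Abcg5 and Abcg8. It was at 137.9 to 186.0 in the colon and 405.8 to 1062.0 in the small intestine. Its log2 difference was -1.70 ± 0.17 (SE, adjusted p = 8.2e-06, limma). Nr1h3 was also called lower in colon than ileum, as were Abcg5 and Abcg8. It was called lower in ileum than jejunum too, where the pair had lower ileum means but no call. The part of Nr1h3 in the differences of the pair was not tested.

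**Figure D2:**
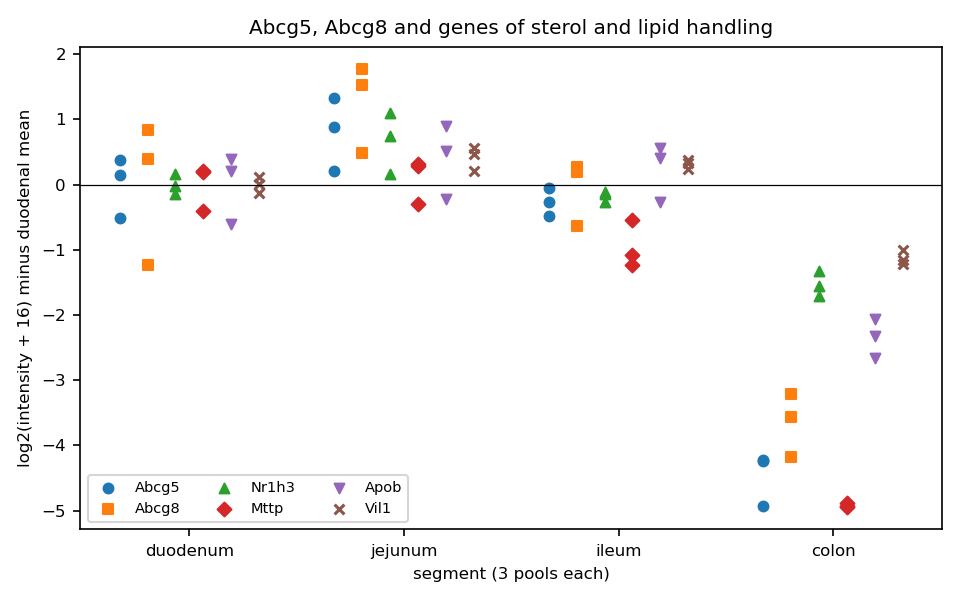
log2(intensity + 16) minus the duodenal mean (vertical axis) in the 3 pools of each segment (horizontal axis) for Abcg5, Abcg8, Nr1h3, Mttp, Apob and the epithelial gene Vil1. In the colon all of these genes are below the duodenal level, with Abcg5, Abcg8 and Mttp lowest and Vil1 and Nr1h3 closest to it.

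Cell markers also differed at the border to the colon. All 6 of 6 smooth muscle markers were higher in colon than in small intestine, with a summed intensity of 23260 to 27418 against 3988 to 9865 in the small intestine. Over all genes 6.92% were called higher and 4.96% lower in that test, the background for all counts here. Of 8 epithelial markers, Vil1 was lower and Cdx1 higher in the colon. The sum of the 8 was 35090 to 42146 there and 31146 to 49592 in the small intestine. These sums add array units of different genes, so the brightest genes weigh most and the sums do not measure cell content. Of 6 enterocyte markers 4 were lower in the colon, with a sum of 4550 to 4876 against 22327 to 41426. Of 5 macrophage markers 2 were lower (sum 800.2 to 1106 in the colon, 1791 to 3416 elsewhere), and of 4 T cell markers 2 were lower (40.5 to 121.7 against 110.0 to 406.8). Of 5 fibroblast markers 2 were higher (3136 to 3602 against 1417 to 2748), and of 4 mesothelial and adipose markers 1, Adipoq, was higher (534.4 to 696.6 against 91.3 to 260.9). Of 4 goblet markers Muc2 was higher and Tff3 lower, and of 4 neuron and glia markers 1, Gfap, was higher. None of 5 endothelial or 4 B and plasma cell markers was called. No marker of these lists was listed at 0, and their part in the ABC differences was not tested. In whole tissue, fewer cells of a type and less RNA per cell cannot be told apart.

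Other sterol and lipid exporters did not share the pattern of the pair. Of the 10 measured genes with this role, Abcg5 and Abcg8 were called in the colon tests and the other 8 in none. Abca7, a phospholipid exporter, ran from 582.6 to 1495.8, with its highest mean in the colon (log2 difference to small intestine 0.54 ± 0.23, SE, adjusted p = 0.21, limma). A block for the 18S class made this a call, as did keeping only samples of high 18S signal. Abca3, which loads surfactant lipid into lamellar bodies in the lung, was bright in every pool, at 1373.4 to 2344.9. Abcg1, which exports cholesterol to lipoproteins, was between 55.1 and 263.4, and Abcb4, which moves phosphatidylcholine into bile in the liver, between 16.3 and 104.7.

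Abca2, a lipid transporter of endosomes and lysosomes, was at 160.9 to 231.8 in the jejunum and 61.0 to 133.1 in the ileum, with no overlap. Its ileum to jejunum difference of -0.92 ± 0.26 (SE, log2) had an adjusted p of 0.082 in limma, and it was called when each array was centred on its median, under quantile normalization, and when dim probe sets were left out. Abca1, the cholesterol exporter that starts HDL particles, stayed at 11.9 to 68.7, in the dim range. Abcg4 was between 51.8 and 248.2 and Abca4, the retinal transporter of the eye, between 10.5 and 41.5.

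Among the efflux pumps for drugs and organic anions, 11 genes were measured and 3 were higher in colon than small intestine, Abcb1a, Abcc3 and Abcc4. They were the only higher calls of the family in that test, 3 of 43 members, a share near the background of 6.92% of all genes. From ileum to colon 1 member, Abcc3, was higher, where the background was 2.49%.

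Abcb1a encodes P-glycoprotein, the drug pump of the apical membrane. Its intensity was 86.3, 169.6 and 295.4 in the duodenum, 151.1, 274.9 and 309.8 in the jejunum, 383.3, 371.2 and 1272.9 in the ileum, and 908.6, 1015.1 and 1572.0 in the colon. The segment means lay, from low to high, in the order duodenum, jejunum, ileum, colon, ileum 3 lay among the colon pools, and the other 8 small-intestinal pools were below all colon pools. The colon mean was 1165 ± 356 (SD, n = 3) and the small-intestinal mean 368.3 ± 353.9 (SD, n = 9), a ratio of 3.16.

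For colon against small intestine the Abcb1a log2 difference was 1.94 ± 0.37 (SE), with an adjusted p of 0.0031 in limma. No step between neighbours was called: jejunum minus duodenum was 0.47, ileum minus jejunum 1.22 and colon minus ileum 0.98 on the log2 scale, with adjusted p-values of 0.80, 0.21 and 0.40 in limma. The ileum exceeded the duodenum by 1.69 ± 0.45 (SE, log2, adjusted p = 0.086), and without duodenum 3 this difference was 2.08 and was called. The close copy Abcb1b was at 1.1 to 15.8 in all pools, and how far the probe sets tell the copies apart was not tested.

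Abcc3 encodes MRP3, a basolateral exporter of glucuronides and bile acids. Its intensity was 2125.3, 1934.7 and 1865.2 in the duodenum, 862.9, 1711.9 and 1566.7 in the jejunum, 877.7, 759.8 and 888.9 in the ileum, and 2674.0, 3197.3 and 2996.5 in the colon. The gene was thus high at both ends, lowest in the ileum and highest in the colon, with overlap only between jejunum 1 and the ileum. The colon mean of 2956 ± 264 was 3.51 times the ileum mean of 842.1 ± 71.5 (SD, n = 3 each).

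From ileum to colon Abcc3 rose by a log2 value of 1.79 ± 0.21 (SE, adjusted p = 6.1e-05, limma). From duodenum to ileum it fell, with a log2 difference of -1.22 ± 0.21 (SE, adjusted p = 0.0044, limma), the only ABC gene called in that test (1 of 43 lower, background 1.55%, and none higher, background 1.43%). In that test 11 members had an unadjusted p below 0.05, and the median of the members was -0.04 against 0.04 over all genes. The steps from duodenum to jejunum (-0.57) and from jejunum to ileum (-0.65) were not called, with adjusted p-values of 0.29 and 0.13 in limma. With the 18S class as a block they were -0.94 and -0.65 and both were called, and without jejunum 1 the step from jejunum to ileum was -0.95 and was called.

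The 4 exocrine pancreas markers had a summed intensity of 67999 to 70779 in the duodenal pools and of at most 1306 in any other pool. The part of pancreatic RNA in the duodenal value of Abcc3 was not tested.

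Abcc4 encodes MRP4, an exporter of cyclic nucleotides and other anions. Its intensity was 44.5, 90.0 and 34.3 in the duodenum, 15.1, 33.6 and 23.7 in the jejunum, 98.4, 77.8 and 48.0 in the ileum, and 117.9, 110.0 and 154.8 in the colon. Every colon pool was above every small-intestinal pool, by a narrow margin against ileum 1. The means of 56.3, 24.1 and 74.7 in duodenum, jejunum and ileum were below the array set median of 103.4 and not shown to exceed background. The log2 difference of colon against small intestine was 1.20 ± 0.35 (SE), and the adjusted p of 0.049 in limma sat at the threshold. The call held when dim probe sets were left out. That filter goes by the highest segment mean, here that of the colon, so it adds no independent support. Abcc4 has 1 probe set, so the settings that vary the probe set could not change its call. It was not called under 16 of 25 other settings, over which its adjusted p ran from 0.020 to 0.23, and without duodenum 1 or 3, any 1 jejunum pool, ileum 2 or 3, or any 1 colon pool it was not called.

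Abcc2 encodes MRP2, which secretes conjugates across the apical membrane. Its intensity was 97.4, 100.4 and 117.6 in the duodenum, 76.0, 113.4 and 128.9 in the jejunum, 52.5, 60.2 and 61.5 in the ileum, and 39.5, 34.3 and 27.1 in the colon. Duodenum and jejunum overlapped, all ileum pools were below both, and all colon pools were below the ileum. The small-intestinal mean of 89.8 ± 28.0 (SD, n = 9) was 2.67 times the colon mean of 33.6 ± 6.2 (SD, n = 3). The colon mean and the ileum mean of 58.1 are below the array set median of 68.35. They were not shown to exceed background, so the factor is a ratio of listed values.

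The Abcc2 log2 difference for colon against small intestine was -1.05 ± 0.23 (SE, adjusted p = 0.0077, limma). The gene's second probe set, on array set B, had means of 158.7, 148.9, 91.7 and 99.4 from duodenum to colon. Its difference was -0.33 ± 0.32 (SE, adjusted p = 0.69, limma), of the same sign but smaller and not called. The difference of the first probe set was -0.95 without colon 3 and -0.94 without the 4 samples of low 18S signal, and neither was called.

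Abcc6 encodes MRP6, known for its role in preventing mineral deposits in connective tissue. Its intensity was 21.4, 55.6 and 12.1 in the duodenum, 98.5, 109.5 and 81.7 in the jejunum, 16.8, 23.3 and 37.3 in the ileum, and 5.5, 24.4 and 10.3 in the colon. The jejunum pools were above all others, and the remaining segments overlapped. Segments differed in the test over all 4 (adjusted p = 0.014, limma), but not in any single contrast: jejunum minus duodenum was 1.41 ± 0.38 and ileum minus jejunum -1.45 ± 0.38 (SE, log2), with adjusted p-values of 0.11 and 0.056. Colon against small intestine was -1.03 ± 0.31 (SE, log2, adjusted p = 0.058). Both of the last were called with an offset of 64 and with either other scaling of the arrays. Leaving out dim probe sets also gave both calls, but that filter goes by the highest segment mean. Abcc6 passed it through the jejunum, with a mean of 96.6 there and of 13.4 to 29.7 elsewhere, so it adds no independent support. Ileum minus jejunum was also called without duodenum 2, and the colon test without duodenum 3 and without the intensity trend. The call over all segments was lost without jejunum 2, and also without the 4 samples of low 18S signal, which leaves 1 jejunum and 1 ileum pool.

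**Figure D3:**
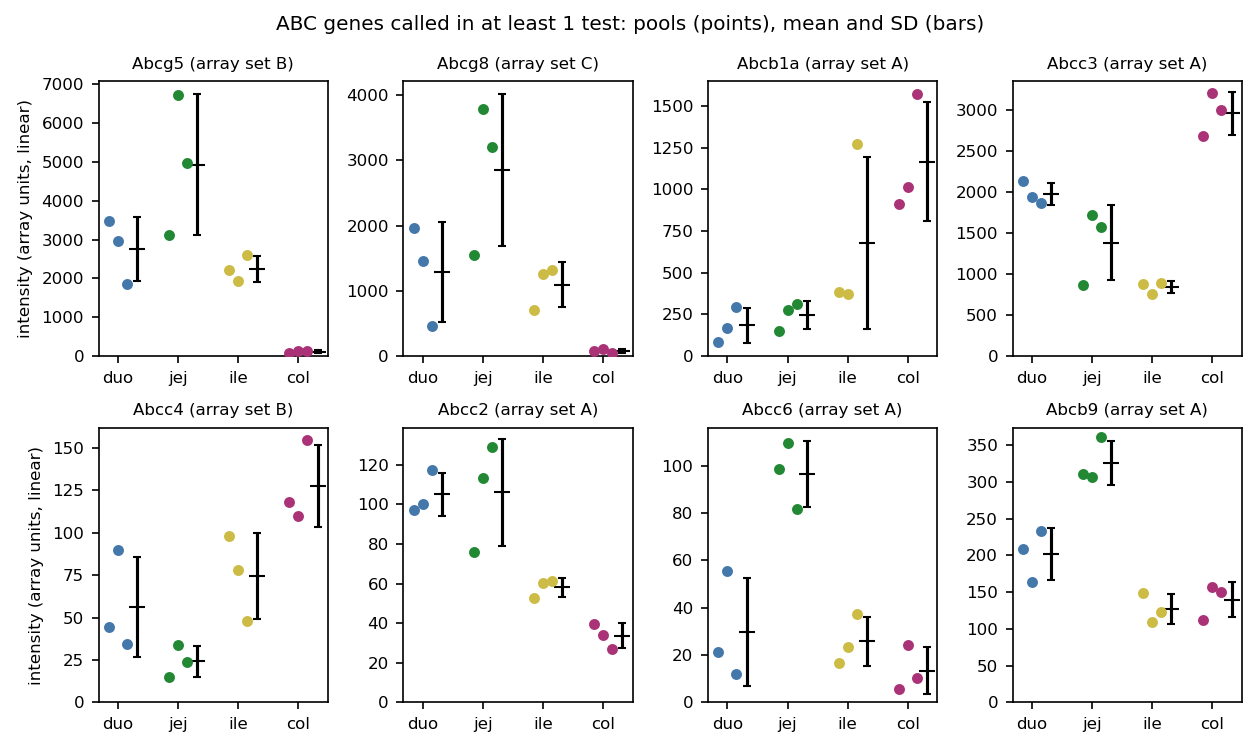
Intensity (vertical axes, linear array units starting at 0) of the 8 called ABC genes in the duodenum, jejunum, ileum and colon (horizontal axes); points are pools, and bars are the mean and SD of 3 pools. Abcg5 and Abcg8 are near 0 in the colon, Abcb1a, Abcc3 and Abcc4 are highest there, and Abcc6 and Abcb9 are highest in the jejunum.

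The remaining 6 efflux genes were called in none of the tests. Abcg2, the breast cancer resistance protein of the apical membrane, was at 384.5 to 628.5 in the duodenum, 392.1 to 786.0 in the jejunum, 662.6 to 987.1 in the ileum and 493.6 to 547.3 in the colon. Its ileum pools were above all colon pools and overlapped the jejunum, and colon minus ileum was -0.68 ± 0.24 (SE, log2, adjusted p = 0.20, limma). All 3 probe sets of Abcg2, on array sets A, B and C, had their highest mean in the ileum (867.0, 150.5 and 355.9), and none was called. Abcc5, an exporter of cyclic nucleotides, was between 156.9 and 274.5 and Abcc10 between 256.2 and 536.4. Abcc1, a pump for glutathione conjugates, and Abcc12 were dim, at 8.2 to 56.6 and 6.4 to 40.7.

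Abcb11, the bile salt export pump of the liver, was between 39.5 and 253.1 with no order by segment (adjusted p = 0.85 over all segments, limma). Among 7 measured carriers of bile acids, 4 were higher in ileum than jejunum (background 2.46%), Fabp6, Slc51a, Slc51b and Slc10a2, the gene set that takes up bile acids in the ileum. Abcc3, which also exports bile acids, had its lowest mean in that segment.

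Of 15 enzymes that conjugate or oxidise substrates of the pumps, 8 were lower in ileum than jejunum (background 2.02%) and none was higher (background 2.46%), led by Gstm1, Gstm3, Gstp1 and Cyp3a11. In the colon 4 were lower than in the small intestine (background 4.96%), among them Cyp3a11, Cyp3a13 and Gstm3, and 2 were higher (background 6.92%), among them Sult1a1. Among 13 measured nuclear receptors and factors known to act on ABC genes, 4 were called between ileum and jejunum. Of these 3 were lower in the ileum, Nr1h3, Nr1i3 and Ppara (background 2.02%), and 1, Hnf4a, was higher (background 2.46%). Nr1i3, which senses drugs, was at 331.2 to 562.5 in the jejunum and 125.3 to 253.6 in the ileum (log2 difference -1.25, adjusted p = 0.020, limma). Pparg, a fatty acid receptor, was higher in colon than in small intestine by 1.97 ± 0.27 (SE, log2, adjusted p = 0.00015, limma). Nr1i2, the pregnane X receptor that acts on Abcb1a in other settings, was between 119.9 and 212.1 and was called in no test.

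Abcb9 encodes a transporter that carries peptides into lysosomes. Its intensity was 209.3, 163.6 and 232.9 in the duodenum, 311.0, 306.4 and 360.6 in the jejunum, 149.4, 109.1 and 122.9 in the ileum, and 112.0, 156.5 and 150.5 in the colon. The jejunum pools were above all others, the ileum and colon overlapped, and the duodenum lay between. The jejunum mean of 326.0 ± 30.1 was 2.56 times the ileum mean of 127.1 ± 20.5 (SD, n = 3 each).

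From jejunum to ileum Abcb9 fell, with a log2 difference of -1.26 ± 0.21 (SE, adjusted p = 0.0041, limma). It was the only ABC gene called in that test (1 of 43 lower, background 2.02%, and none higher, background 2.46%), where 12 members had an unadjusted p below 0.05 and the median of the members was 0.01 against 0.08 over all genes. In the 8 samples with high 18S signal, where a single pool of jejunum and of ileum is left and is assumed to vary like the other groups, the difference was -1.39 and was not called.

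The peptide transporters Tap1 and Tap2, ABC proteins under other symbols that load peptides for MHC class I, differed at another border. Both were lower in colon than ileum, with log2 differences of -1.27 and -0.94 (adjusted p = 0.0063 and 0.038, limma). Cftr, the ABC protein that forms a chloride channel, differed among the segments (adjusted p = 0.038, limma), with means of 317.8, 180.2, 206.5 and 373.1 from duodenum to colon, and was called in no single contrast.

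From duodenum to jejunum no ABC gene was called by limma, where the background was 0.639% of all genes higher and 0.858% lower. At an unadjusted p below 0.05 there were 6 (Abcb9, Abcc3, Abcc6, Abcc9, Abcg5 and Abcg8), and the smallest adjusted p was 0.11, that of Abcc6. The median of the members was 0.06 against -0.05 over all genes. Without duodenum 2 the step of Abcc6 was called.

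**Figure D4:**
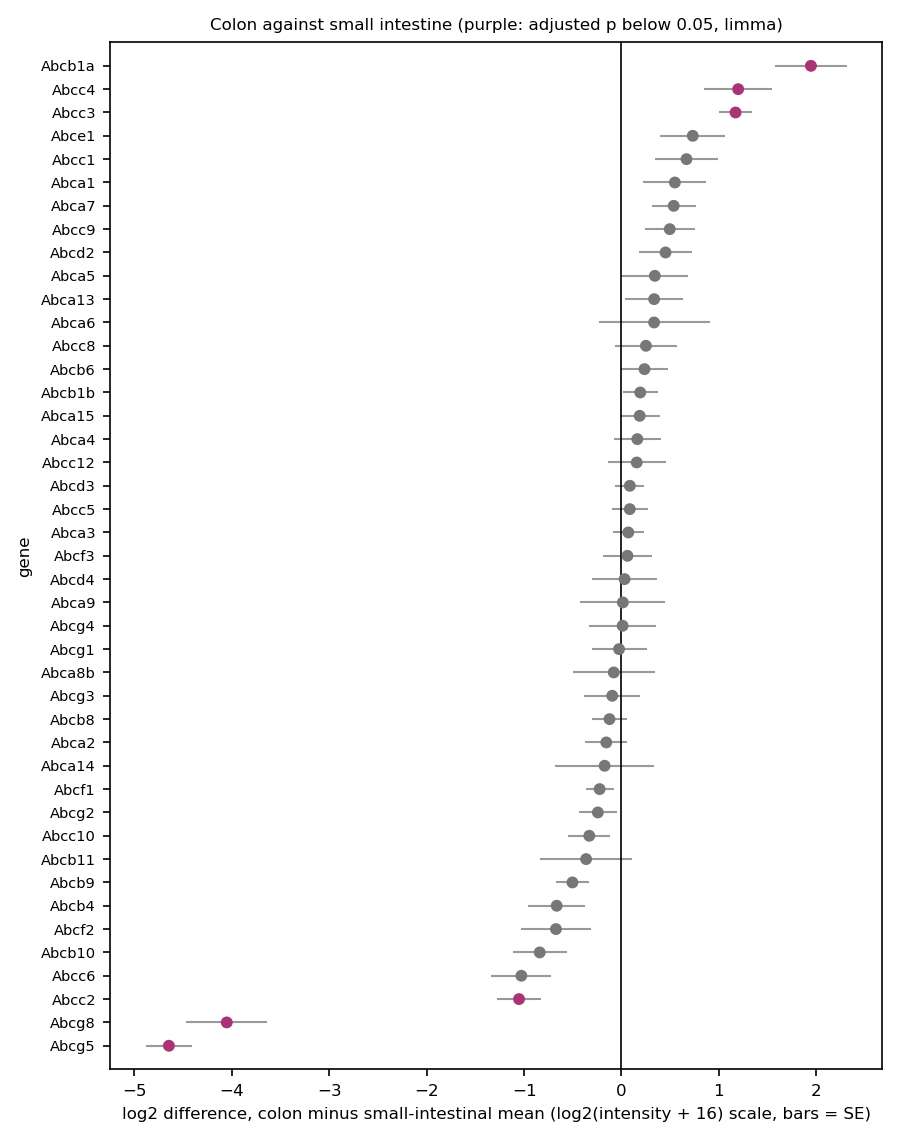
log2 difference between colon and the average small-intestinal segment (horizontal axis, log2(intensity + 16) scale, bars are SE) for the 43 ABC genes (vertical axis, ordered by difference); purple points have an adjusted p below 0.05. Abcg5 (-4.65) and Abcg8 (-4.05) stand at the lower end and Abcb1a (1.94) at the upper end, and 25 of the 43 differences are above 0.

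No mitochondrial member was called. Of these genes, Abcb6, linked to porphyrin transport, was between 157.2 and 379.1, and Abcb8 between 161.5 and 289.7. Abcb10, which is needed for heme synthesis, ran from 97.8 to 127.2 in the duodenal pools and from 27.7 to 59.1 in the colon pools, without overlap, while its ileum pools spread from 53.1 to 140.7. Its colon difference of -0.84 ± 0.28 (SE, log2) had an adjusted p of 0.092 in limma, and it was called when dim probe sets were left out and without ileum 2. Of 7 measured partners of heme and iron-sulfur synthesis, only Slc25a37, a mitochondrial iron carrier, was called. It was lower in colon than ileum (background 2.74%) and higher in ileum than duodenum (background 1.43%).

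The peroxisomal fatty acid transporter Abcd3 was steady at 400.5 to 810.6 across the pools. Abcd2, a relative for very long fatty acids, was dim at 3.5 to 40.2, and Abcd4, a lysosomal protein of vitamin B12 handling, was at 5.8 to 91.1. None of the 3 was called. Abcd2 had colon pools of 28.0, 40.2 and 3.7, and without the last, colon 3, it was called against the ileum and against the small intestine. Of 6 measured peroxisomal partners 3 (Acaa1a, Hsd17b4 and Pex5) were lower in colon than small intestine (background 4.96%).

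The sulfonylurea receptors Abcc8 and Abcc9, which are subunits of potassium channels and not transporters, were dim. Abcc9, the form found in smooth muscle, was at 8.6 to 23.2 in the duodenum, 27.1 to 43.5 in the jejunum, 36.8 to 60.8 in the ileum and 37.0 to 62.5 in the colon. All duodenum pools were below all pools of the other segments, and the ileum and colon overlapped. Ileum minus duodenum was 1.12 ± 0.31 (SE, log2) with an adjusted p of 0.11 in limma, and it was called when the intensity trend was left out of the variance model. Smooth muscle marker sums overlapped between duodenum (3988 to 5005) and jejunum (4250 to 7181). They were higher in the ileum (7949 to 9865) and highest in the colon (23260 to 27418). For Abcc9, colon minus ileum was 0.01 ± 0.31 (SE, log2), so it showed no such rise at that border. The part of smooth muscle in the Abcc9 values was not tested. Abcc8, the form of pancreatic islets, was at 7.8 to 67.9, and the channel partners Kcnj8 and Kcnj11 were called in no test.

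The translation factors Abcf1, Abcf2, Abcf3 and Abce1, the last of which recycles ribosomes, were called in none of the tests. Abcf1 was the steadiest of them, from 432.0 to 828.9 with segment means within a ratio of 1.31. Abce1 had colon pools of 94.0, 85.4 and 82.4 and a range of 17.3 to 84.8 elsewhere, and its colon difference of 0.73 ± 0.33 (SE, log2) had an adjusted p of 0.25 in limma. Of 5 measured partners in translation, 1, the release factor Etf1, was higher in colon than small intestine (background 6.92%).

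The 8 remaining Abca and Abcg genes, Abca5, Abca6, Abca8b, Abca9, Abca13, Abca14, Abca15 and Abcg3, had colon differences between -0.17 and 0.34 on the log2 scale and no call in any test. Abca14 ran from 98.3 to 617.1, Abca6 from 19.4 to 191.9 and Abcg3 from 250.3 to 610.7. Abca5 was between 93.8 and 346.8 over all pools and Abca15 between 332.2 and 607.1.

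In all, 8 of the 43 members were called in at least 1 of the 6 tests, against 15.8% of all genes, and 35 in none, 25 of them with a segment mean above the array median and the 10 dim ones. Their differences ran from -0.99 (Abcb4, colon minus ileum) to 1.12 (Abcc9, ileum minus duodenum) on the log2 scale, and the smallest adjusted p among them was 0.078 over all segments (Abcc9) and 0.082 in a single contrast (Abca2). Of the 20 members with several probe sets, the 32 further probe sets gave no call in any test. A p above the threshold with 3 pools per segment does not show that these genes are level along the intestine.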

How the data were processed

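The files hold intensity values on a linear scale, deposited by the authors without a named unit. Total RNA and 3 pools of 10 mice per segment are given per the labels. The software behind the scaling is not given in the sources used here. Symbols came from the platform annotation provided with the arrays (29131 probe sets with 1 symbol, 724 with several, 6846 without). A probe set naming Abcc2 and another gene was left out.

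Here log2(intensity + 16) was fitted per array set with limma 3.58.1 (R 4.3.3), using a mean for each segment, 12 arrays per set and an intensity trend. The offset understates changes of dim genes. Tests were 2-sided, with Benjamini-Hochberg adjustment over 36701 probe sets of the 3 sets and a threshold of 0.05. Detection calls were not used. Precision is limited by the number of arrays. The labels do not tie equal sample numbers to the same mice. All p-values rest on the spread among pools, which may be partly technical. Of 18 pairs of same-numbered samples from different segments, deviations correlated above 0.1 in 5, 5 and 4 on sets A, B and C, and of 36 pairs with different numbers in 9, 3 and 8. With 3 pools per segment these correlations cannot exclude shared mice, and on set B same-numbered pairs were above 0.1 more often. As the labels give no pairing, numbers were not used as pairs, and the replicate block is an alternative.

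Pool values are given for members called in a test and for Abcb1a, Abcc3 and Abcg5, and of each partner list at most 4 called genes, those with the smallest adjusted p, are named per comparison. Members and lists were chosen with earlier results of these data known. Uncalled members given with a test, and Nr1i2, fall outside this rule and were chosen after their values were seen. Alternatives covered the offset, scaling, variance trend, dim probe sets, probe set per gene, 18S class, arrays in the fit, a replicate block and each pool left out. Probe sets left out as dim were those whose highest segment mean was not above the median probe set mean of their array set. That filter uses the segment means, so calls gained under it are not independent support.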

Additional observations from a re-analysis of the deposited data

How the results depend on the processing

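No called ABC difference changed its direction in any alternative. Abcg5, Abcg8, Abcb1a and Abcc3 kept each of their calls in all of them. Each of these genes has 1 probe set, so the alternatives that vary the probe set could not change their calls. Abcb9 lost its calls only among the samples with high 18S signal. Over all segments 7 genes were called, 4 of them among those samples. For jejunum minus duodenum 0 became 1 with the 18S class as a block or among those samples. For ileum minus jejunum 1 became 2 with an offset of 64, 3 with arrays centred on the median, 3 with quantile normalization, 3 with a block for the 18S class, 0 among the high 18S samples and 4 without dim probe sets. For ileum minus duodenum 1 became 2 without the intensity trend. With the replicate block, ileum minus jejunum and ileum minus duodenum had 2 calls each, Abcb1a being added, and Abcc4 was lost in the colon test; the shared numbers are not known to pair samples. The causes were not tested.

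Leaving out 1 pool at a time gave 6 to 8 calls over all segments, 0 to 1 for jejunum minus duodenum (1 without duodenum 2), 1 to 3 for ileum minus jejunum (3 without jejunum 1, 2 without duodenum 2), 3 to 4 for colon minus ileum, 1 to 2 for ileum minus duodenum (2 without duodenum 3) and 5 to 6 for colon minus small intestine. Leaving out array duodenum 3 of set C changed no ABC call. The choice of probe set decided the calls of Abcc2 only.

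Centring moved the median of all probe sets, on the log2 scale, from 0.06 to -0.11 for ileum minus jejunum, from -0.06 to 0.07 for jejunum minus duodenum and from 0.04 to -0.07 for colon minus small intestine. It moved the share of higher among called probe sets from 57.9% to 26.8%, from 37.2% to 47.3% and from 58.6% to 43.2%, and for ileum minus duodenum from 46.9% to 36.9%. For colon minus small intestine a fit of only the arrays compared is the fit of all arrays, so it gave no further value. Signal near the array median limits what can be said of the 10 dim genes.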
